A study of Arabidopsis thaliana with 18 samples.

Results

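In 100 Arabidopsis thaliana genes, plants exposed to lanthanum (La) lay on opposite sides of unexposed plants in roots and in shoots: 52 were higher in La roots and lower in La shoots, and 48 were lower in La roots and higher in La shoots. Each table held 28991 genes, and 14389 of them had a control mean of at least 50 normalised reads in both tissues. Normalised reads are counts scaled by 1 size factor for each library. A gene was taken when all 3 La libraries lay on the same side of all 3 control libraries in both tissues and the signs of log2((La mean + 0.5)/(control mean + 0.5)) differed between tissues. These genes were ranked by the smaller of the 2 absolute log2 values, and the first 100 of 224 were kept. The rule leaves out 4 loci by name, and none of these met the other conditions.

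The groups were, in each tissue, plants exposed to 5 µM La, plants exposed to 5 µM ytterbium (Yb), and controls exposed to neither, all wild type Col-0. La, a light rare earth element, and Yb, a heavy one, were given as chlorides for 72 h to 6-week-old plants in hydroponic culture. The exposure medium held no phosphate in any group, so the controls were deprived of phosphate too, and each library pooled 3 plants. Each of the 6 groups held 3 libraries of polyadenylated RNA from a stranded kit, and since nothing in the labels ties replicates to separate containers, p-values measure only the spread between these libraries.

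A transcript level in a whole organ sums over its cell types. The same exposure can therefore be followed by a rise in roots and a fall in shoots, or the reverse. Roots meet the element in the medium first, while shoots receive it, or signals and nutrients altered by it, through the xylem. Ferredoxins, a pair of which lay in opposite directions here, are small iron-sulfur proteins that carry electrons: from photosystem I in leaves, and towards nitrite and sulfite reduction in roots.

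The root libraries held 12.80 to 16.22 M reads each, and the shoot libraries 12.44 to 16.35 M. Markers matched the organ labels: 8 genes of green tissue summed to 652455 to 743645 normalised reads in La shoots, 605523 to 672216 in Yb shoots and 671745 to 842723 in control shoots, and to at most 1261 in any root library. In roots this sum was 652 to 924 with La, 304 to 1261 with Yb and 386 to 772 in controls. The sum of 8 root markers was 1237 to 2766 in La roots, 3522 to 7142 in Yb roots and 5189 to 7516 in control roots, so the La roots lay below every control root, and it was 45.4 to 89.9 across all shoot libraries. Mitochondrial reads were 0.0650% and 0.0549% in control roots 1 and 3, and at most 0.0118% in the other root libraries. The part of these shifts in the results below was not tested, and in whole organs fewer cells of a type and less RNA per cell cannot be told apart.

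Few of the genes whose La libraries stood apart from the controls met the rule. In roots, La and control values did not overlap for 5349 of the 14389 genes (37.2%), of which 19.3% of genes lay above and 17.9% below the controls. In shoots this held for 1770 genes (12.3%), with 6.24% above and 6.06% below. Both tissues together gave 694 genes, of which 470 differed in the same direction (262 higher and 208 lower with La in both) and 224 in opposite directions (110 higher in La roots and lower in La shoots, 114 the reverse). These La values chose the genes, so they are given as a description and were not tested. With so few libraries in each group, La and control values of some genes do not overlap even without a La effect. This weighs most in shoots, where the share was 12.3% against 37.2% in roots. The number expected without an effect was not counted. The 224 genes therefore cannot all be taken as responses to La in both tissues.

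**Figure D1:**
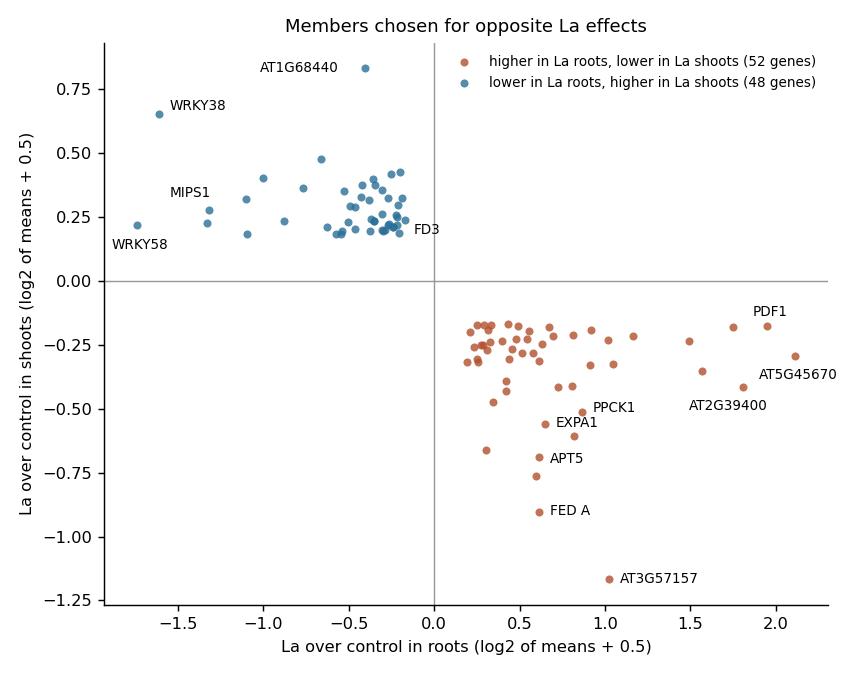
La over control in shoots (log2 of group means, vertical axis) against the same in roots (horizontal axis), with a point for each of the 100 genes; both axes chose the genes. Most points lie near the horizontal axis, since the smaller change was the one in shoots for 76 of the 100 genes.

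Most of the differences were small on at least 1 side. The absolute log2 value was at least 1 for 17 genes in roots and for 1 gene in shoots, and the smaller of both values reached 0.5 for 8 genes. Among the 52 genes higher in La roots, log2 values were 0.19 to 2.11 in roots (median 0.57) and -1.17 to -0.17 in shoots (median -0.27). Among the 48 genes lower in La roots, they were -1.74 to -0.17 in roots (median -0.37) and 0.18 to 0.83 in shoots (median 0.25). The last genes inside the limit were AT1G64850, an EF hand protein (0.33 in roots, -0.17 in shoots), FD3 (-0.17 and 0.24) and AT5G43870 (0.43 and -0.17). The first outside were AT3G45310, a cysteine proteinase (-0.26 and 0.17), AT4G21620, a glycine-rich protein (1.34 and -0.17), and RCA, rubisco activase (0.52 and -0.17).

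The highest-ranked gene was AT3G57157, annotated as a non-coding RNA of 237 bases on chromosome 3 (21157011 to 21157247, plus strand, TAIR10.1). It had 3276, 3108 and 2248 normalised reads in La roots, 2682, 2008 and 1736 in Yb roots, and 1898, 1320 and 1022 in control roots. In shoots it had 66.1, 55 and 39.1 with La, 72.0, 76.1 and 86.2 with Yb, and 133, 87.1 and 141 in controls. The La libraries lay above every control in roots and below every control in shoots, with log2 values of 1.03 and -1.17, and in shoots the Yb libraries also lay below every control.

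FED A and FD3, 2 ferredoxins, lay in opposite directions. FED A (also called FD2), the main ferredoxin of leaves, had 145, 182 and 182 normalised reads in La roots, 145, 154 and 85 in Yb roots, and 113, 116 and 103 in control roots. Shoot values were 11991, 12654 and 13497 with La, 13166, 13181 and 14080 with Yb, and 21115, 26662 and 23516 in controls. Its shoot mean was thus 12714 ± 755 with La and 13476 ± 523 with Yb, against 23764 ± 2782 in controls (SD, n = 3), and neither element's libraries overlapped the controls. The La log2 values were 0.62 in roots and -0.90 in shoots.

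FD3, the ferredoxin of roots, lay the other way, by little. It had 2637, 2586 and 2755 normalised reads in La roots, 2789, 3020 and 2710 in Yb roots, and 2871, 3308 and 2804 in control roots. In shoots it had 294, 319 and 323 with La, 291, 328 and 314 with Yb, and 259, 269 and 265 in controls. In shoots both elements' libraries lay above every control, whereas in roots the Yb libraries overlapped the controls. FD1, the other leaf ferredoxin and not among the 100 genes (chosen for mention after its values were seen), averaged 2388 ± 213 in La shoots, 2306 ± 389 in Yb shoots and 2473 ± 250 in control shoots, which overlapped.

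FTRA2, HCF173, PGM and AT5G03905 were higher in La roots and lower in La shoots, as FED A was and FD3 was not. They were picked from the 100 by their annotation after their values were seen, and so support nothing about a class of genes. FTRA2, a subunit of the reductase that passes electrons from ferredoxin to thioredoxin, averaged 152 ± 9.86 in La roots, 114 ± 25.1 in Yb roots and 127 ± 4.32 in control roots, and 2002 ± 194 in La shoots, 2063 ± 66.1 in Yb shoots and 2493 ± 174 in control shoots. HCF173, which promotes translation of the photosystem II core protein D1, had log2 values of 0.40 in La roots and -0.24 in La shoots. PGM, a phosphoglucomutase, had 0.29 and -0.17, and AT5G03905, an iron-sulfur cluster biosynthesis protein, had 0.33 and -0.24. For AT5G03905 the Yb roots (314 to 374 normalised reads) overlapped the controls (341 to 373), unlike the La roots (415 to 467). The product names of 0 of the 100 genes held "photosystem". Only 13 of the 14389 genes (0.0903%) held it, so this count says nothing about genes of photosynthesis.

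**Figure D2:**
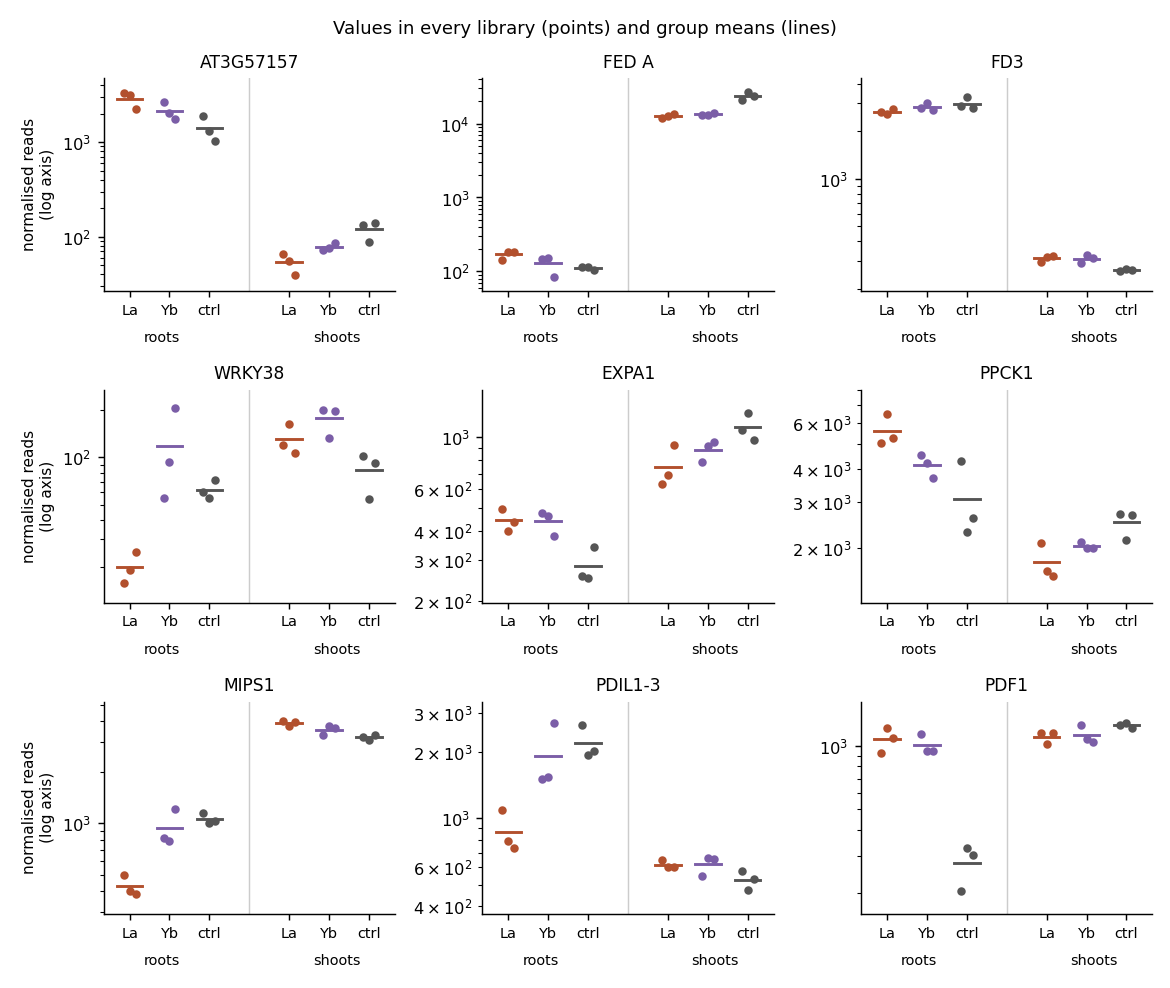
Normalised reads (vertical log axis) of 9 of the genes in every library, with La, Yb and control libraries from left to right in roots and then in shoots; points are libraries and lines are group means. FED A, EXPA1, PPCK1 and PDF1 lie higher in La roots and lower in La shoots than in controls, and FD3, WRKY38, MIPS1 and PDIL1-3 the reverse.

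Among the other high ranks with higher values in La roots, 2 genes have well-known enzymatic roles. PPCK1, the kinase that activates phosphoenolpyruvate carboxylase, had 5021, 6495 and 5239 normalised reads in La roots, 4519, 4225 and 3697 in Yb roots, and 4290, 2300 and 2595 in control roots. The shoot libraries had 2083, 1634 and 1562 with La, 2099, 1995 and 2003 with Yb, and 2697, 2152 and 2679 in controls. In shoots both elements' libraries lay below every control, and in roots control 1 overlapped the Yb libraries. The gene AT1G08645 overlaps PPCK1 on the other strand, with control means of 1.76 in roots and 1.67 in shoots, and its part in the PPCK1 values was not tested. APT5, an adenine phosphoribosyltransferase of purine salvage, averaged 115 ± 22 in La roots, 93.7 ± 14.2 in Yb roots and 74.8 ± 7.34 in control roots, and 37.2 ± 5.04 in La shoots, 48.8 ± 10.0 in Yb shoots and 60.3 ± 13.5 in control shoots.

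EXPA1, an expansin that loosens cell walls, was the only one of the 100 genes found in 24 lists of pathway genes. It had 497, 397 and 436 normalised reads in La roots, 474, 464 and 380 in Yb roots, and 256, 252 and 340 in control roots. In shoots it had 635, 690 and 925 with La, 786, 920 and 951 with Yb, and 1072, 1274 and 968 in controls. Both elements' libraries lay above every control in roots and below every control in shoots. Of 19 wall-loosening genes in its list, 11 had control means of at least 50 in both tissues. For these 11, La lay above the controls for 5 and below for 4 in roots, and above for 0 and below for 2 in shoots. Over the 14389 genes the shares above and below were 19.3% and 17.9% in roots and 6.24% and 6.06% in shoots. The 24 lists held 437 genes, of which 288 passed the limit on control means. Of these 288, 3 met the rule before ranking, where 224 of the 14389 genes did. The 3 were EXPA1, RCA and APX1, a cytosolic ascorbate peroxidase, the last named after its values were seen. Lists without a member could still have medians of opposite sign. For 17 phosphate starvation genes that passed the limit, named after their values were seen, the median was 0.52 in La roots and -0.46 in La shoots. La lay above the controls for 0 and below for 0 in roots, and above for 0 and below for 2 in shoots.

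The remaining high ranks in this direction have less certain roles. AT3G15770 and AT3G45730 are uncharacterised proteins with log2 values of 0.82 and 0.60 in La roots and -0.61 and -0.76 in La shoots. FAF3, of a family that limits shoot meristem size, had 0.42 and -0.43, and AT2G39400, an alpha/beta-hydrolase, had 1.81 and -0.41. AT1G61065, a DUF1218 protein, had 0.73 and -0.41, AT2G41170, an F-box protein, 0.81 and -0.41, and AT3G62070, an uncharacterised protein, 0.42 and -0.39. For AT1G61065 the Yb roots lay below the controls (63.5 to 81.0 against 86.6 to 108 normalised reads) while the La roots lay above them (149 to 167).

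Some genes of the epidermis and its wax layer were among those higher in La roots, and PDF1 and SVB had 2 of the 4 largest log2 values there. These genes were picked from the 100 after their values were seen. No list of epidermis or wax genes was tested, so they show nothing about such genes as a class. EXPA7 and COBL9, root markers that did not pass the limit on control means, went the other way. Their log2 values were -4.34 and -4.07 in La roots. PDF1, a proline-rich protein of the outermost shoot cell layer, had 922, 1215 and 1090 normalised reads in La roots, 1135, 950 and 943 in Yb roots, and 205, 327 and 303 in control roots. Its shoot levels were 1156, 1018 and 1149 with La, 1254, 1075 and 1049 with Yb, and 1253, 1289 and 1217 in controls. The La log2 value was large in roots (1.95) and small in shoots (-0.18), and the Yb shoots overlapped the controls.

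HTH, an oxidoreductase needed for the cuticle and for keeping floral organs from fusing, averaged 157 ± 17.2 in La roots, 194 ± 3.81 in Yb roots and 112 ± 19.3 in control roots. CER3, which acts in the synthesis of wax alkanes, averaged 202 ± 64.2 in La roots, 187 ± 48.5 in Yb roots and 125 ± 23.4 in control roots; its Yb roots overlapped the controls. AT5G12420, a WSD1-like acyltransferase, averaged 1323 ± 75.0 in La roots, 797 ± 186 in Yb roots and 700 ± 92.6 in control roots. SVB, which shapes trichome branching, averaged 2750 ± 800 in La roots, 2332 ± 426 in Yb roots and 818 ± 29.6 in control roots. Its log2 values were 1.75 in La roots and -0.18 in La shoots. The whole SVB transcript (1123 bases) lies over the gene PGN on the opposite strand, which had control means of 57.7 in roots and 102 in shoots. Which strand was counted is not stated, and the part of PGN in the SVB values was not tested. The 8 floral marker genes summed to 11.6 to 21.8 in La roots, 14.9 to 23.5 in Yb roots and 14.4 to 25.5 in control roots, so they stayed low in every root group.

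The I-box, GATAAG, a motif known from promoters of light-regulated genes, was found in 8 of the 52 promoters of genes higher in La roots (15.4%) and in 0 of the 48 of genes lower in La roots, against 11.99% of the 14374 promoters of genes with a control mean of at least 50 in both tissues and 12.4% of all 28780 promoters. It was 1 of 9 motifs searched on both strands in the 250 bases before each RefSeq gene start. Promoters of 2 high-ranked genes and 2 genes with large log2 values in La roots that hold it are shown, 5′ to 3′ towards the gene, from TAIR10.1 (RefSeq), with GATAAG and CACGTG on either strand in capitals.
AT3G15770, chr3:5339742-5339991, plus strand: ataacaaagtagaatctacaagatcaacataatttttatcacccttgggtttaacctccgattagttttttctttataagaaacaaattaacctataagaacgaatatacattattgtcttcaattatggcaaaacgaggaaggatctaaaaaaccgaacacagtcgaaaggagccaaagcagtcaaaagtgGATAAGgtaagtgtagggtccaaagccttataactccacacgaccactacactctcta
AT3G45730, chr3:16789530-16789779, plus strand: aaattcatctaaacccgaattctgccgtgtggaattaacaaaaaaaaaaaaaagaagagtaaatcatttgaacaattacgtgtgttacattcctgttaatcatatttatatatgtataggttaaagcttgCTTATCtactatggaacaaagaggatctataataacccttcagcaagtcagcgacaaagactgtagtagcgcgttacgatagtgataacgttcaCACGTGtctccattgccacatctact
AT4G29020, chr4:14304671-14304920, plus strand: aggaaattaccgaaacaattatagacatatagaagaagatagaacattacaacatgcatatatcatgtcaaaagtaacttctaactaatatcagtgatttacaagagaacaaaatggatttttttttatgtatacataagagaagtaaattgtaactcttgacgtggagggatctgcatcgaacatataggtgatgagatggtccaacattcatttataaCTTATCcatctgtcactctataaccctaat
PDF1, chr2:17827649-17827898, minus strand: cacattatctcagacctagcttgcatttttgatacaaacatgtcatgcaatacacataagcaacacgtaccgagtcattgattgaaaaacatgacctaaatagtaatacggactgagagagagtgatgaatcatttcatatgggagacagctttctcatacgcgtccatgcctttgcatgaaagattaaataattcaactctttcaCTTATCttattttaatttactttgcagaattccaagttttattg
The I-box began 58 bases before the gene start on the gene's own strand in AT3G15770, and lay on the other strand in the remaining 3, with its first printed base 120 bases before the start in AT3G45730, 30 in AT4G29020 and 44 in PDF1. AT3G45730 also held a G-box, CACGTG, whose first base was 26 bases before the start. A match is only a run of letters and does not show that a factor binds there.

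Among the genes lower in La roots and higher in La shoots, the highest rank was WRKY38, a transcription factor that restrains basal defence. It had 15.8, 19.2 and 25.0 normalised reads in La roots, 55.3, 93.3 and 206 in Yb roots, and 59.9, 54.8 and 71.9 in control roots. In shoots it had 120, 164 and 107 with La, 202, 132 and 199 with Yb, and 102, 54.6 and 91.5 in controls. The La roots lay below every control (log2 -1.61) whereas the Yb roots overlapped the controls and reached above them, and in shoots both elements' libraries lay above the controls. WRKY58, another defence-related WRKY factor, had 38.0, 39.3 and 39.4 in La roots, 57.2, 37.7 and 127 in Yb roots, and 134, 110 and 149 in control roots. Its shoot values were 80.9, 79.4 and 70.9 with La, 111, 82.9 and 87.9 with Yb, and 70.2, 65.1 and 63.5 in controls, all above the controls with either element.

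MIPS1, which makes inositol phosphate from glucose 6-phosphate as the first step of inositol synthesis, had 500, 398 and 387 normalised reads in La roots, 818, 793 and 1209 in Yb roots, and 1152, 1009 and 1038 in control roots. Shoots held 4030, 3747 and 3932 with La, 3304, 3732 and 3627 with Yb, and 3216, 3102 and 3332 in controls. The La roots lay far below every control, and the Yb roots overlapped the controls. The enzymes named next were picked from the 100 genes after their values were seen, and no list of their pathways was tested. 5PTASE13, an inositol polyphosphate 5-phosphatase, had -1.10 in La roots and 0.18 in La shoots, and PLDGAMMA3, a phospholipase D, had -0.46 and 0.29. TPPE, a trehalose 6-phosphate phosphatase, had -0.46 and 0.20, and PAP9, a purple acid phosphatase, had -0.35 and 0.24. A further phosphatase, AT4G25150, an acid phosphatase of another family, lay the other way with 0.58 and -0.28. So did PAP17 (0.70 and -0.16) and PAP10 (0.41 and -0.40). These are purple acid phosphatases outside the 100 genes, and their La roots overlapped the controls.

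PDIL1-3, a protein disulfide isomerase-like protein, had 1092, 792 and 731 normalised reads in La roots, 1510, 1541 and 2690 in Yb roots, and 2630, 1926 and 2010 in control roots. In shoots it had 646, 605 and 600 with La, 546, 659 and 657 with Yb, and 578, 473 and 529 in controls. Yb root 3 was the highest of all root libraries, above every control. LEW3, a mannosyltransferase of N-glycan assembly in the endoplasmic reticulum, had -0.31 in La roots and 0.20 in La shoots. AT3G01720, a peptidyl serine alpha-galactosyltransferase, had -0.54 and 0.20, and TBL27, of the family that acetylates wall polysaccharides, had -0.63 and 0.21. GPX5, a glutathione peroxidase, had -0.22 and 0.25.

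The other high ranks in this direction were AT1G63840, a RING protein (-0.66 in La roots and 0.48 in La shoots), AT1G68440, uncharacterised (-0.41 and 0.83), and AT1G49450, a WD40 repeat protein (-1.0 and 0.40). AT1G80290, a sugar transferase, had -0.42 and 0.37, AT5G49680, a SABRE-like protein, -0.77 and 0.36, and AT4G28990, an RNA-binding protein, -0.36 and 0.40. AT3G12040, a DNA-3-methyladenine glycosylase, had -0.53 and 0.35, AT3G60200, uncharacterised, -0.34 and 0.38, and AT5G41920, a GRAS transcription factor, -0.43 and 0.33. AT3G62780, a calcium-dependent lipid-binding protein, had -1.10 and 0.32, and KLCR3, related to kinesin light chains, -0.38 and 0.31. For AT1G49450 the control roots were 85.4, 227 and 78.1 normalised reads, so control root 2 carries most of its change.

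The G-box was found in 6 of the 48 promoters of genes lower in La roots (12.5%) and in 5 of the 52 of genes higher in La roots (9.62%), against 7.38% of promoters of genes with a control mean of at least 50 in both tissues and 6.31% of all promoters. MIPS1 and PDIL1-3, with 2 of the 4 lowest log2 values in La roots, each held more than 1, and their promoters are shown with CACGTG in capitals.
MIPS1, chr4:18472049-18472298, minus strand: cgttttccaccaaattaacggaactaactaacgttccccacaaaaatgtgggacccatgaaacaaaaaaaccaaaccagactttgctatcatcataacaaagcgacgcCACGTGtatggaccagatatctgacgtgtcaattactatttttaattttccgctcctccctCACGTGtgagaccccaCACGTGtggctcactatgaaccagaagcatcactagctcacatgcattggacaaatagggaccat
PDIL1-3, chr3:20366875-20367124, minus strand: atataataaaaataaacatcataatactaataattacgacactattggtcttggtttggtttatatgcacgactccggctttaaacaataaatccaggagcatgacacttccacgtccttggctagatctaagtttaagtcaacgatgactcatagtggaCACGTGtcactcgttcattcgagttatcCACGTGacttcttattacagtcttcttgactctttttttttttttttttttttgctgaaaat
In MIPS1 the first base of the motif lay 142, 81 and 65 bases before the gene start, and in PDIL1-3 90 and 62. Every CACGTG also holds the shorter ACGTG, which was found in 30.8% of promoters of genes higher in La roots, 22.9% of genes lower in La roots, 22.7% of genes with a control mean of at least 50 in both tissues, and 22.6% of all. The W-box core, TTGAC, was found in 26.9%, 39.6%, 44.3% and 44.8% in the same order. The other motifs were TATCCA (15.4%, 14.6%, 14.1% and 13.6%), ACTCAT (9.62%, 10.4%, 11.4% and 12.4%), AATATCT (11.5%, 8.33%, 10.03% and 9.84%), AACCCTA (5.77%, 4.17%, 5.40% and 6.47%) and TGGGCC (11.5%, 14.6%, 19.0% and 13.3%).

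The genes also differed in which organ held more of their transcript, a feature the rule did not use directly. In the Yb libraries, which took no part in the choice, 28 of the 52 genes higher in La roots (53.8%) had higher counts per M reads (CPM) in shoots than in roots, as did 9 of the 48 genes lower in La roots (18.8%) and 25.9% of the 14389 genes. In La libraries these shares were 40.4%, 27.1% and 25.1%. In control libraries they were 65.4% (34 of 52), 8.33% (4 of 48) and 24.8%. The median log2 of shoots over roots for the genes higher in La roots was -0.35 with La, 0.14 with Yb and 0.70 in controls. For the genes lower in La roots it was -0.62 with La, -0.78 with Yb and -1.48 in controls, and for the 14389 genes it was -0.53, -0.53 and -0.60 in the same order. The rule itself draws the La ratios of both sets together and pushes their control ratios apart, so these shares are descriptions. Each table was scaled within its tissue, so the ratios were taken from CPM.

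**Figure D3:**
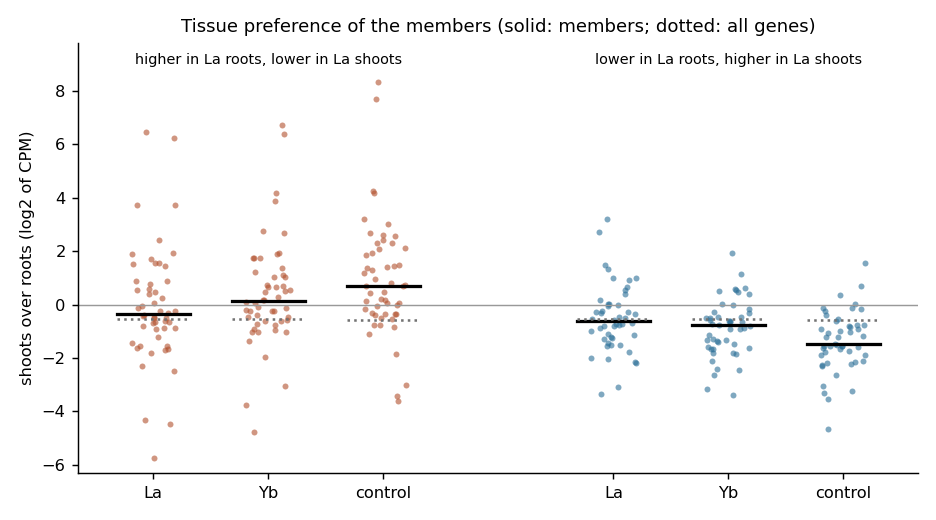
Log2 of CPM in shoots over roots (vertical axis) for each gene, from group means, with La, Yb and control from left to right within each direction; black lines are medians of the genes shown and dotted lines medians of all 14389 genes. The median of the genes higher in La roots is above 0 in Yb and control plants and below 0 in La plants.

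The Yb libraries show the same genes under a second element. The Yb libraries were not used by the rule but the control libraries were, and the comparison shares them with La. The choice therefore also favours genes whose controls lay to 1 side, and the shares over all genes are no measure of what these genes would show without a Yb effect. The Yb fits below also took their spread from all libraries of a tissue, La included. The rule favours genes whose La and control values spread little, so their SE and p-values may be too small. The counts below are descriptions. In roots, 18 of the 52 genes higher in La roots had all Yb libraries above all controls and 1 had all below, where 19.9% of the 14389 genes did not overlap, 10.6% above and 9.26% below. Of the 48 genes lower in La roots, 0 lay above and 11 below. In shoots, 20 of the 52 lay below every control and 0 above, and 19 of the 48 lay above, where 6.80% of the 14389 genes lay above and 7.23% below.

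The fitted Yb effects are given without a comparison of their size with the La values, since the choice of genes favours large La values. Among the 52 genes higher in La roots their median was 0.30 in roots (-0.37 to 1.88) and -0.16 in shoots (-0.81 to 0.39). Among the 48 genes lower in La roots it was -0.23 in roots (-0.99 to 0.72) and 0.18 in shoots (-0.14 to 1.12). Over the 14389 genes the median was 0.0041 in roots and -0.0016 in shoots.

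**Figure D4:**
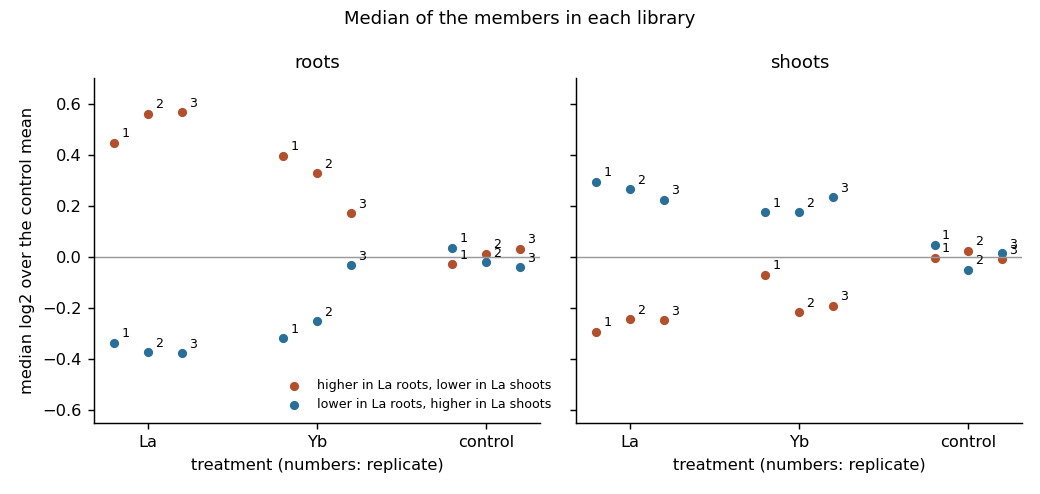
Median over the genes of the log2 of each library's value over the control mean (vertical axis), for both directions, in roots and in shoots, with La, Yb and control libraries from left to right and replicate numbers beside the points. Yb root 3 lies nearest to the controls for both directions.

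The Yb root libraries differed among themselves. The median log2 over the control mean for the genes higher in La roots was 0.45, 0.56 and 0.57 in La roots 1, 2 and 3, and 0.40, 0.33 and 0.17 in Yb roots 1, 2 and 3. For the genes lower in La roots it was -0.34, -0.37 and -0.38 in La roots and -0.32, -0.25 and -0.03 in Yb roots. Yb root 3 was also the library with the highest root marker sum among Yb roots (7142, with 3945 and 3522 in the other two) and the lowest green marker sum (304). In shoots the medians for the genes higher in La roots were -0.29, -0.24 and -0.25 with La and -0.07, -0.22 and -0.19 with Yb, and for the genes lower in La roots 0.30, 0.27 and 0.22 with La and 0.18, 0.18 and 0.23 with Yb.

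With limma's test across all genes (Benjamini-Hochberg adjusted p below 0.05), 6 of the 100 genes were called for Yb against control in roots, all higher and all among the 52 genes higher in La roots. Of all 22729 genes tested in roots 1.24% were called (0.871% higher), and of the 14389 genes 0.966% (0.653% higher). The 6 were PDF1 (log2 1.88 ± 0.18 SE, adjusted p = 0.00640), SVB (1.49 ± 0.20, adjusted p = 0.0182), AT2G39400 (1.43 ± 0.22, adjusted p = 0.0211) and AT5G45670, a GDSL-type lipase (1.71 ± 0.26, adjusted p = 0.0256). AT4G29020, a glycine-rich protein, rose by 1.28 ± 0.22 (adjusted p = 0.0333) and HTH by 0.81 ± 0.14 (adjusted p = 0.0336). AT5G45670 had 289, 408 and 239 normalised reads in La roots, 297, 226 and 182 in Yb roots, and 51.0, 78.7 and 85.3 in control roots, with no overlap. The count was 1 without Yb root 1, without Yb root 2 or without control root 2 (PDF1 each time), 3 without control root 3, and 19 without Yb root 3. Of the 48 genes lower in La roots 0 were called by limma and by edgeR and 4 by DESeq2. In the limma fit 14 of the 48 had an unadjusted p below 0.05. Without Yb root 3, limma called 8 of them, all lower. Shares over all genes were counted only for limma's adjusted p with all libraries, so these other counts have none beside them.

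In shoots 1 gene was called for Yb, FED A, where 0.041% of 21967 genes tested and 0.0417% of the 14389 genes were called, all lower. It was lower by a log2 of -0.81 ± 0.09 SE (limma adjusted p = 0.00520, lower than every control in 3 of 3 Yb libraries). Without Yb shoot 2 it was not called (0 genes), and without control shoot 3 the count was 3. Of the 48 genes lower in La roots 0 were called in shoots by limma and by edgeR and 2 by DESeq2. In the limma fit 14 of the 48 had an unadjusted p below 0.05. The share over all genes was again not counted for DESeq2 or for unadjusted p.

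**Figure D5:**
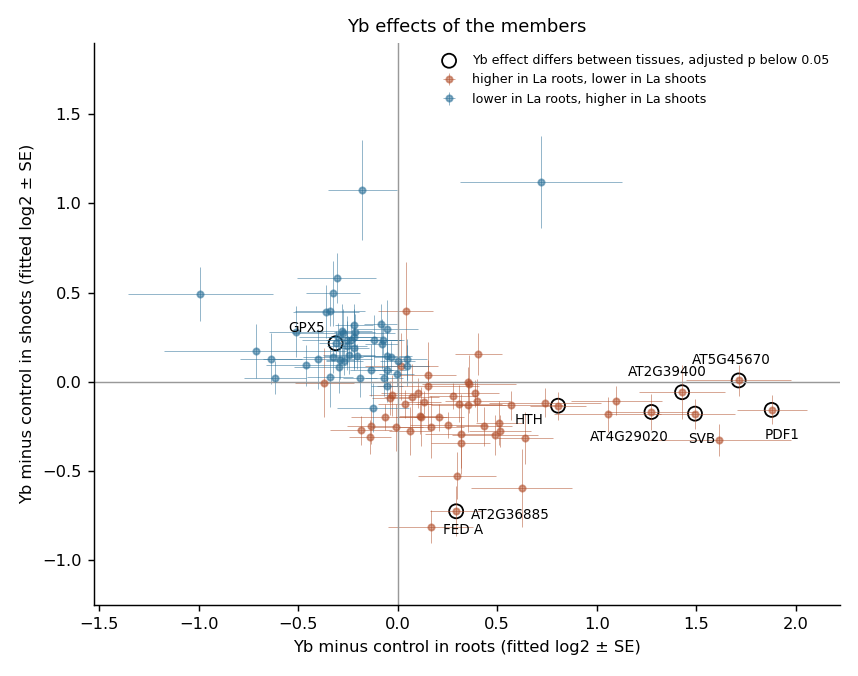
Fitted Yb minus control in shoots (vertical axis) against the same in roots (horizontal axis), log2 with SE, for each of the 100 genes; circles mark the 8 genes whose Yb effect differed between tissues (limma adjusted p below 0.05). PDF1 lies farthest to the right at 1.88 in roots and -0.16 in shoots.

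The Yb effect differed between roots and shoots in 8 of the 100 genes (limma interaction over 18 libraries). Of 20981 genes tested in both tissues 0.31% were called, and of the 14389 genes 0.292%. The rule chose genes whose controls lay on opposite sides of La in the 2 tissues. Since this comparison uses the same controls, the choice favours calls of these signs, and the count is a description. In 7 of the 8, all higher in La roots, the effect in roots exceeded that in shoots: the 6 genes above and AT2G36885, a gene annotated as a translation initiation factor. PDF1 gave a difference of 2.04 ± 0.20 (adjusted p = 0.000426) and SVB one of 1.67 ± 0.23 (adjusted p = 0.00518). AT2G36885 averaged 209 ± 26.7 normalised reads in La roots, 207 ± 9.51 in Yb roots and 169 ± 22.5 in control roots, and 310 ± 58.5 in La shoots, 298 ± 40.2 in Yb shoots and 491 ± 36.9 in control shoots. Its difference was 1.02 ± 0.20 (adjusted p = 0.0385). GPX5 had the reverse sign, -0.53 ± 0.10 (adjusted p = 0.0363): it averaged 838 ± 27.0 in La roots, 784 ± 41.0 in Yb roots and 976 ± 95.4 in control roots, and 522 ± 5.15 in La shoots, 510 ± 30.5 in Yb shoots and 439 ± 16.4 in control shoots. The count was 3 without Yb root 1, 5 without Yb root 2, 26 without Yb root 3, 4 without Yb shoot 1, 2 without Yb shoot 3, 5 without control shoot 1 and 3 without control shoot 2. PDF1 and SVB were called in each of these fits, for which the share over all genes was not counted.

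Some levels are less certain because genes share sequence. Of the 100 genes 28 overlap another annotated gene, 22 of them a gene in the tables on the opposite strand. AT1G21280, annotated as a retrotransposon polyprotein, lies wholly over WAK2 on the other strand, and SIP2;1, a small intrinsic protein, overlaps CRD1, whose control mean was 19526 in shoots and 47.0 in roots. ABCG42, a transporter, has a transcript 95.6% identical to that of ABCG43 over 4160 bases, so reads may be split between them. No gene among the 100 adjoined another on its chromosome.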

How the data were processed

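RNA of roots and shoots was read in 18 libraries, 3 per group of tissue and treatment. The submitters' processing notes list the build TAIR10 with HTSeq 0.6.1p1, TopHat2 2.1.1 and Trimmomatic 0.36.1, without saying what each did or which strand was counted. Per gene, the authors deposited a signal, made of counts scaled by 1 size factor for each library within its tissue, although the tables are named for a length-normalised unit. All values (100%) were whole multiples of 1 step per library within 0.001, so whole reads could be recovered. The plan had assumed length-normalised values, and its test was kept.

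The 100 genes and the gene lists were chosen with earlier results of these data known. The named genes were the 12 highest ranks of each direction, list members, the 3 genes on each side of the limit, and up to 5 genes called for Yb in each tissue; others were added after their values were seen. Genes with a value of at least 1 in at least 3 libraries were fitted with limma 3.58.1 in R 4.3.3 on log2(value + 0.5), with empirical Bayes moderation (trend, robust), over the 9 libraries of a tissue or all 18 for the difference between tissues. Two-sided p-values were adjusted over all genes tested (Benjamini-Hochberg, threshold 0.05). A fold on this scale understates changes of low genes. The test was checked on simulated data. edgeR 4.0.16 and DESeq2 1.42.0 on whole reads, other pseudocounts, no filter, a replicate block, quantile normalization and leaving out libraries were the alternatives. Names, coordinates and promoters came from RefSeq TAIR10.1, in which 28781 of 28991 loci matched. BLAST+ 2.17.0 compared transcripts at 95% identity over at least 50% of the length.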

Additional observations from a re-analysis of the deposited data

Results flagged for a closer look

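The genes below are listed because a test of the difference itself (limma interaction over 18 libraries, adjusted p below 0.05) found a Yb effect that was not the same in roots and in shoots. All share the control libraries that helped to choose them, and their spread was estimated with the La libraries included. The value is the Yb effect in roots minus that in shoots, on the log2 scale. PDF1 had 2.04, AT5G45670 1.71, SVB 1.67, AT2G39400 1.49, AT4G29020 1.45, AT2G36885 1.02, HTH 0.94 and GPX5 -0.53. A difference of this kind need not mean opposite effects, and none of these genes was called for Yb in shoots. In the first 7 the Yb libraries stood higher against controls in roots than in shoots, and in GPX5 lower. AT2G36885 is the 1 gene of these 7 that was not called for Yb in roots (0.29 ± 0.13 SE, limma adjusted p = 0.296), and its shoot effect was -0.73 ± 0.14 (limma adjusted p = 0.148). GPX5 was called in neither tissue alone. Its effect was -0.31 ± 0.08 in roots (limma adjusted p = 0.109) and 0.22 ± 0.07 in shoots (limma adjusted p = 0.432).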

How the results depend on the processing

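The fitted Yb values of the 9 genes called in at least 1 comparison were recomputed 258 times in all and kept their direction each time; 196 also stayed past the threshold. PDF1 was past it in 14 of 14 alternatives in roots, with log2 values of 1.67 to 2.01 and adjusted p of 6.39e-20 to 0.0406, and FED A in 13 of 14 in shoots (-0.89 to -0.69, adjusted p 1.31e-14 to 0.0715). HTH and AT4G29020 were past it in 8 of 14 each in roots. The counts of genes called for Yb depended on the tool: DESeq2 on whole reads called 15 in roots, 5 in shoots and 20 for the difference between tissues, against 6, 1 and 8 with limma, and edgeR called 6, 1 and 9. All 6, 1 and 8 were among those DESeq2 and edgeR called. Shares over all genes were counted for the main limma fits only. The counts under other fits therefore cannot be set against all genes. With the Yb and control libraries only, limma called 5 in roots, of which 4 were among the 6, without HTH and AT4G29020. In shoots it called 1, FED A. For the difference between tissues it called 5, all among the 8, without AT2G39400, GPX5 and AT4G29020. Leaving out a library gave 1 to 19 in roots, 0 to 3 in shoots and 2 to 26 for the difference. Pseudocounts of 1 and 0.1 and no filter left these counts at 6, 1 and 8.

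The same-numbered libraries of Yb and control had correlated deviations from their group means of 0.190, 0.319 and 0.0914 in shoots and 0.0388, -0.140 and 0.0403 in roots, not all over 0.1, so the replicate numbers were not taken as pairs. Between roots and shoots, same-numbered libraries gave 0.0981, 0.133 and 0.0553 with Yb and 0.0984, 0.164 and -0.0223 in controls. The labels do not say whether they came from the same plants. The replicate block was set within each tissue, and no fit paired the organs. With a replicate block 8 genes were called in roots, of which 5 were among the 6, 1 in shoots, and 9 for the difference, of which 6 were among the 8.

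Choice of the 100 genes: 99 were chosen again with a pseudocount of 1 or 5, and 97 with TMM scaling. A control mean of at least 20 or of at least 100 each kept 63. Leaving out a root library kept 67 to 84. Leaving out a shoot library kept 32 to 67, the fewest without control shoot 2. A missing library makes it easier for others to enter: 572 genes met the rule without control shoot 2, against 224.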

Other observations

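Further genes of the 100 are given by their La log2 values in roots and then in shoots. Secreted and wall proteins among the genes higher in La roots included GRP23, a glycine-rich protein (1.57 and -0.35), and PME1, a pectin methylesterase (0.67 and -0.18). GRP23 averaged 159 ± 39.7 normalised reads in La roots, 170 ± 69.1 in Yb roots and 53.4 ± 18.5 in control roots, and 13823 ± 694 in La shoots, 14033 ± 893 in Yb shoots and 17634 ± 1646 in control shoots. Its fitted Yb effect was 1.61 ± 0.36 SE in roots (limma adjusted p = 0.0753) and -0.33 ± 0.09 in shoots (limma adjusted p = 0.322). ICE1, a transcription factor of cold response and stomatal development, had 0.49 and -0.18. ABCC9, an ABC transporter, had 1.02 and -0.23, and VHA-E3, a subunit of the vacuolar proton pump, had 0.19 and -0.32.

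Among the genes lower in La roots, IQD1, a calmodulin-binding protein, had -0.55 and 0.18. CYP704A2, a cytochrome P450, had -0.22 and 0.26, TSBtype2, a tryptophan synthase subunit, -0.57 and 0.18, and FLDH, a farnesol dehydrogenase, -0.24 and 0.21. In the other direction AT2G16660, a major facilitator protein, stood out for 1 library: it had 355, 401 and 479 normalised reads in La roots, 500, 480 and 919 in Yb roots, and 297, 276 and 273 in control roots. Yb root 3 was the highest of its root libraries. Its log2 values were 0.54 and -0.23.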
